A study of Mus musculus with 20 samples.

Results

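Interferon-stimulated genes are the genes that cells switch on when interferon binds its receptors, and 33 of them were followed here in mouse adipocyte precursor cells. The members are a list of gene symbols, and all 33 were rows of the count table among its 33899 genes. All 33 also passed the filter on low counts, among 14242 genes tested. They comprise 3 transcription factors, 3 IFIT proteins, 5 oligoadenylate synthetases, 4 GTPases, 2 genes of the ISG15 system, 5 nucleic acid sensors and regulators, 3 genes of ADP-ribosylation and 8 others.

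The precursors came from female C57Bl6/J mice aged 8 to 11 weeks, and each library pooled tissue of 3 mice. Cells were sorted as CD45- and CD31-, CD29+, CD34+ and Sca1+, with CD24 of either state, from perigonadal (visceral, VWAT) or inguinal (subcutaneous, SWAT) white fat. In each depot, 5 libraries came from mice on standard diet (SD, day 0) and 5 from mice given a high-fat diet with 60% lard for 3 days (HFD), so the 4 groups are VWAT SD, VWAT HFD, SWAT SD and SWAT HFD. No genotype or drug separated the groups, and SD served as the untreated state of both depots. The p-values below measure the spread between pools, which may be technical, and the labels give no collection day for any pool.

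Polyadenylated RNA was sequenced, and between 14367067 and 47483171 reads per library fell on genes. The genes of CD29, CD34, Sca1 and CD24, with Pdgfra and Dpp4, summed to between 3685 and 6440 CPM in every library. CPM are read counts scaled to library size. Of the genes sorted against, Ptprc (CD45) read 0.206 to 3.53 CPM and Pecam1 (CD31) 13.6 to 54.4 CPM. The library labelled VWAT SD 5 held 0.154 CPM of Wt1, a visceral factor, and 47.7 CPM of Tbx15, a subcutaneous factor. The library labelled SWAT SD 5 held 80.3 CPM of Wt1 and 0.358 CPM of Tbx15. Both libraries thus went against their depot labels, and each result on SD is given with them (20 libraries) and without them (18 libraries).

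Type I interferon acts through a receptor and Janus kinases that activate STAT2, which acts with IRF9 at the interferon-stimulated response element in the promoters of target genes. The products degrade or trap viral RNA, sense foreign nucleic acids, block viral exit or adjust the signal itself. Fat tissue holds many interferon-responsive cell types, and its stromal precursors carry the receptors for both type I and type II interferon.

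The response element gives these genes a shared letter pattern, which was looked for because the members were followed as a unit. RefSeq promoter windows of the build GRCm38.p6, from 250 bases before to 50 after the start, were found for 24 of the 33 members. The letters GAAA, then any 2 bases, then GAAA again, searched on either strand, overlapping matches included, stood in the windows of 12 of these 24 genes (50%). Over all 27025 genes with a window, 3.99% held them. The letters TTCNNNGAA, which gamma-activated sites share, stood in 4 of the 24 genes (16.7%), against 9.55% of all genes. A match is a run of letters and not a measured binding site. The 200 bases before the start are printed for 5 members whose levels are described below, 5′ to 3′ on the gene's strand, with every match of the first pattern in capitals.
Isg15 (chr4:156200819-156201018, minus strand): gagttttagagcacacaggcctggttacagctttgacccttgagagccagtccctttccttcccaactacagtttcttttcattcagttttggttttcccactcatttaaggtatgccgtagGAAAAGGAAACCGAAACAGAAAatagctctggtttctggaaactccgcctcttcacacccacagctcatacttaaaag
Ifit3 (chr19:34583329-34583528, plus strand): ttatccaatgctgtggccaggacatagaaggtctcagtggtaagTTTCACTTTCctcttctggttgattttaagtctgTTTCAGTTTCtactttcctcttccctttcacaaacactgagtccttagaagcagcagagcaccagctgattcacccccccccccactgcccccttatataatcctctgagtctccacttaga
Rsad2 (chr12:26456453-26456652, minus strand): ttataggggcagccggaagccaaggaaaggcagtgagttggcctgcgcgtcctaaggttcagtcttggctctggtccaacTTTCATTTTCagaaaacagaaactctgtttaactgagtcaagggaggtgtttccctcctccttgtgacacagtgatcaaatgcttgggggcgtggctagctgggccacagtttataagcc
Gbp3 (chr3:142559844-142560043, plus strand): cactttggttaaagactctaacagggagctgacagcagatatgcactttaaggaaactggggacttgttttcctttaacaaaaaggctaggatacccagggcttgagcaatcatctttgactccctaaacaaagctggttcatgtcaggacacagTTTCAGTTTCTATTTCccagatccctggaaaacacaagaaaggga
Oas3 (chr5:120777660-120777859, minus strand): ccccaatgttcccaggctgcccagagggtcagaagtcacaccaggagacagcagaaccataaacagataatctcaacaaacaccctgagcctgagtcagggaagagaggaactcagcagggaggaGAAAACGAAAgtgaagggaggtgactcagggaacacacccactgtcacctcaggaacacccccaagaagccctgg
Counted from the start site, with -1 the base before it, Isg15 held 3 overlapping matches, which began at -78, -72 and -66. Ifit3 held a pair of separate matches at -156 and -122, and Gbp3 an overlapping pair at -45 and -39. Rsad2 and Oas3 held 1 match each, at -120 and -75. The windows of Irf7, Oasl1, Oasl2, Ifi44, Trim25, Dtx3l and Cmpk2, among others, held no match of these letters.

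Several members lie beside each other in RefSeq's gene order. Ifit2 is next to Ifit3, Rsad2 next to Cmpk2, Oasl1 next to Oasl2, Oas2 next to Oas3, and Dtx3l lies between Parp14 and Parp9. RefSeq annotates Mx1 and Mx2 of the C57BL/6J genome as transcribed pseudogenes, so their reads show transcription of the locus. Per kilobase of the longest transcript, the mean level over the 4 groups was highest for Bst2, at 141 CPM per kb, followed by Gbp2 at 95.5, Irf7 at 47.4 and Isg15 at 45.7. On the same scale it was lowest for Ifi44 at 0.667, Mx1 at 1.33 and Oas3 at 1.67 CPM per kb. The order was not the same in each group. In VWAT HFD the mean level of Gbp2, 139 CPM per kb, was above that of Bst2, 76.9, and the lowest was that of Oas3, at 0.105 CPM per kb. Bst2 encodes tetherin, which holds budding virus at the cell surface.

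Across single libraries, the level of the 33 members differed by depot. For each member, log2 CPM was taken relative to that gene's mean of the 4 group means, and the median over the 33 members was read in each library. This median lay between -1.03 and -0.83 in VWAT SD 1 to 4 and between -0.91 and -0.29 in the 5 VWAT HFD libraries. It lay between -0.15 and 0.74 in SWAT SD 1 to 4 and between 0.68 and 1.79 in the 5 SWAT HFD libraries. The VWAT and SWAT libraries therefore did not overlap, except for VWAT SD 5 at 0.50 and SWAT SD 5 at -0.98.

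VWAT SD 5 lay within the range of SWAT SD 1 to 4 for 30 of the 33 members, and above all of VWAT SD 1 to 4 for 22. SWAT SD 5 lay within the range of VWAT SD 1 to 4 for 26 members, and below all of SWAT SD 1 to 4 for 25. For the interferon-stimulated genes, as for Wt1 and Tbx15, each of the number 5 SD libraries sat with the depot its label does not name. SWAT HFD 5 had the highest level of all 20 libraries for 29 of the 33 members, the exceptions being Irf9, Ifi35, Samd9l and Gbp2.

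**Figure D1:**
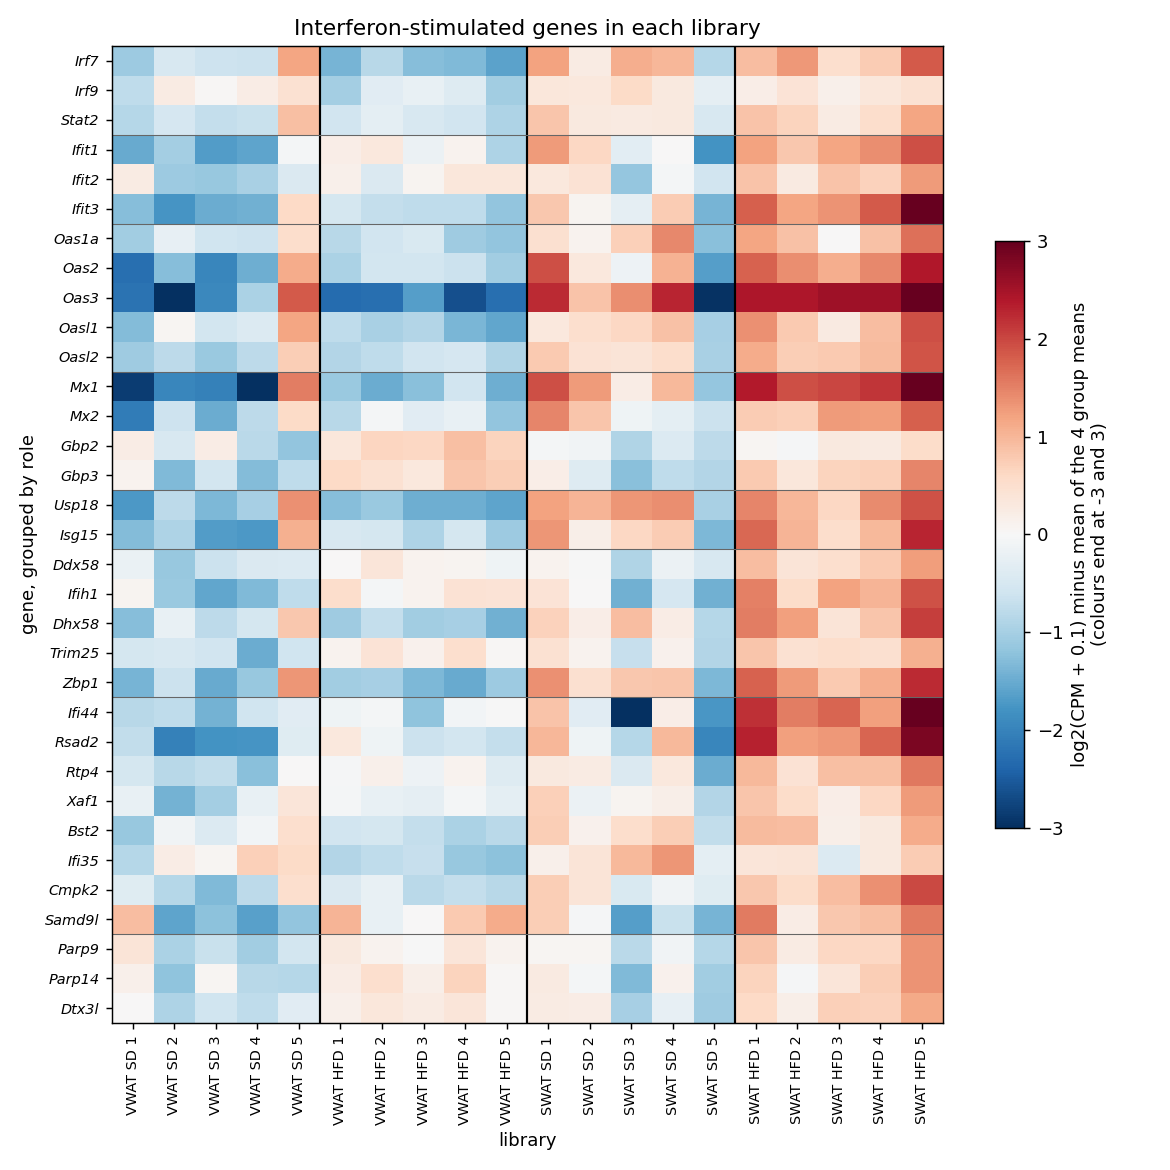
Level of each of the 33 members (rows, grouped by role) in each of the 20 libraries (columns), as log2(CPM + 0.1) minus that gene's mean of the 4 group means. Red is above and blue below that mean, and the columns VWAT SD 5 and SWAT SD 5 carry the colours of the other depot's SD libraries for most rows.

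**Figure D2:**
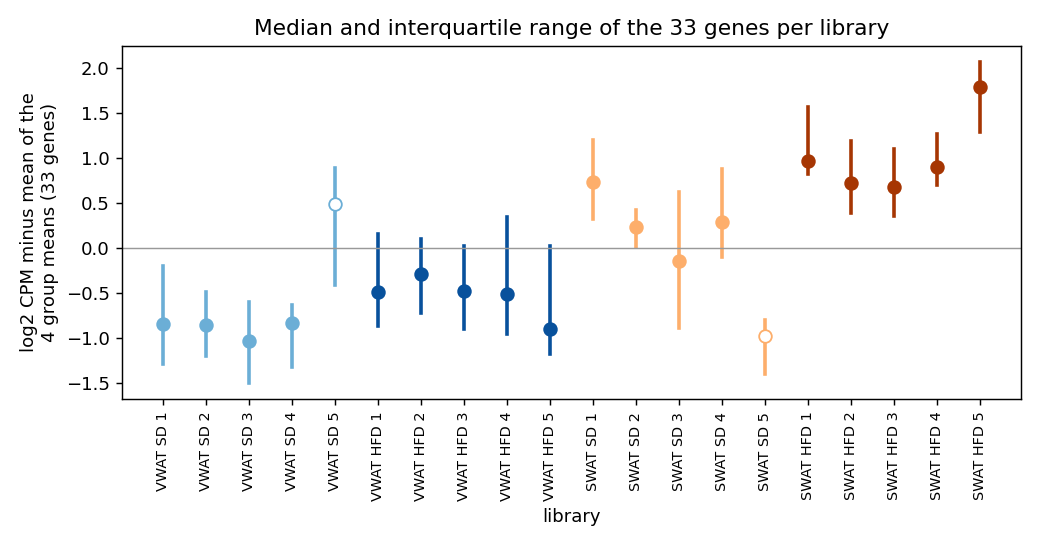
Median (point) and interquartile range (line) over the 33 members of log2 CPM relative to each gene's mean of the 4 group means, in each library. Open points are VWAT SD 5 at 0.50 and SWAT SD 5 at -0.98, and SWAT HFD 5 is the highest library at 1.79.

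On HFD, visceral precursors held less RNA of most interferon-stimulated genes than subcutaneous precursors, and neither number 5 SD library belongs to these groups. With edgeR's quasi-likelihood test and Benjamini-Hochberg adjustment at 0.05, 23 of the 33 members were lower in VWAT HFD and 0 were higher. Of all genes tested, 3.63% were lower and 2.82% higher. The members' median log2 fold change, VWAT HFD against SWAT HFD, was -1.45, beside -0.01 over all genes, and 32 of the 33 were negative. In 25 members every SWAT HFD library lay above every VWAT HFD library, as was the case for 8.56% of all genes. In bulk libraries, fewer cells that express a gene and less RNA per cell cannot be told apart.

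All 3 transcription factors were lower. Irf7, which amplifies the interferon response, was at 44.4, 66.1, 48.6, 46.9 and 38.9 CPM in VWAT HFD 1 to 5 and at 225, 291, 167, 201 and 422 CPM in SWAT HFD 1 to 5. Every visceral library was below every subcutaneous one, and Irf7 was 5.34-fold lower (log2 fold change -2.42 ± 0.41, adjusted p = 0.00478). Irf9, the DNA-binding partner of STAT2, read 36.3, 58.3, 63.2, 56.2 and 36.2 CPM in VWAT HFD and 84.4, 98.3, 82.2, 93.7 and 102 CPM in SWAT HFD. Its groups did not overlap either, and the difference was smaller (log2 fold change -0.88 ± 0.22, adjusted p = 0.0173). Stat2 was also lower, at -1.30 ± 0.30 on the log2 scale.

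Of the IFIT proteins, which bind viral RNA and block its translation, 2 of 3 were lower. Ifit3 stood at 16.9, 14.9, 14.3, 14.4 and 10.8 CPM in the visceral HFD libraries and 85.5, 55.8, 62.4, 87.3 and 228 CPM in the subcutaneous ones. The groups were far apart, with the last subcutaneous library well above the other subcutaneous libraries, and Ifit3 was 7.28-fold lower in VWAT (log2 fold change -2.86 ± 0.49, adjusted p = 0.00478). Ifit1 read 39.4, 42.1, 30.2, 36.5 and 18 CPM against 79.3, 59.3, 78, 89.8 and 129.8 CPM and was lower without overlap (log2 fold change -1.39 ± 0.41, adjusted p = 0.0458). Ifit2 had a log2 fold change of -0.71 ± 0.30 and did not pass the test (adjusted p = 0.178, edgeR).

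The 5 oligoadenylate synthetases, a family known for making the messenger that activates RNase L, were all lower in VWAT HFD. Oas3 showed the largest difference of the 33 members. It was at 0.446, 0.465, 0.769, 0.336 and 0.469 CPM in VWAT HFD and at 14.6, 14.6, 15.7, 15.8 and 44 CPM in SWAT HFD, a 42.6-fold difference (log2 fold change -5.41 ± 0.98, adjusted p = 0.00516). Subcutaneous libraries 1 to 4 lay close together and the fifth stood apart above them. Oasl2 read 43.6, 47.3, 53.8, 55.8 and 42.5 CPM in VWAT HFD and 173, 133, 137, 154 and 298 CPM in SWAT HFD (log2 fold change -1.88 ± 0.35, adjusted p = 0.00516). Oasl1, which in mouse is known to restrain translation of Irf7, read 3.29, 2.82, 2.99, 2.10 and 1.85 CPM and 14.7, 9.69, 6.79, 10.8 and 21.8 CPM (log2 fold change -2.29 ± 0.42, adjusted p = 0.00516). Neither gene's groups overlapped. Oas1a and Oas2 had log2 fold changes of -1.83 ± 0.38 and -2.45 ± 0.60.

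Usp18, which removes ISG15 from proteins and dampens the receptor, was at 10.8, 12.1, 9.46, 9.54 and 8.73 CPM in VWAT HFD and 73.7, 52.8, 41, 70.5 and 100.3 CPM in SWAT HFD. The visceral values were tightly grouped and all below the subcutaneous ones (log2 fold change -2.74 ± 0.50, adjusted p = 0.00516). Isg15 itself, a ubiquitin-like modifier, averaged 15.4 ± 2.81 CPM in VWAT HFD and 68.4 ± 34.7 CPM in SWAT HFD (± standard deviation, n = 5 each), with a log2 fold change of -2.16 ± 0.51. The Mx loci were lower as well, Mx1 by a log2 fold change of -3.91 ± 0.85 and Mx2 of -1.69 ± 0.44. The guanylate-binding proteins among the members, Gbp2 and Gbp3, did not share this. They are GTPases that respond strongly to type II interferon. Gbp2 read 283, 346, 340.4, 419.7 and 354 CPM in VWAT HFD and 231, 219, 274, 268 and 328 CPM in SWAT HFD, was the only member with a positive value, and its groups overlapped (log2 fold change 0.40 ± 0.24, adjusted p = 0.38). Gbp3 had a log2 fold change of -0.25 ± 0.28 (adjusted p = 0.684). Of the same family but outside the members, Gbp6 averaged 15.2 CPM in VWAT HFD and 32.9 CPM in SWAT HFD. Gbp7 averaged 17.5 and 20.2 CPM.

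Among the sensors and their regulators, 3 of 5 were lower. Dhx58, which encodes LGP2, averaged 6.11 ± 1.09 CPM in VWAT HFD and 31.7 ± 14.1 CPM in SWAT HFD (± standard deviation, n = 5 each; log2 fold change -2.38 ± 0.38, adjusted p = 0.00349). Zbp1, a sensor of Z-form nucleic acids, had a log2 fold change of -2.73 ± 0.51. Ddx58, which encodes the RNA sensor RIG-I, differed least of the 3 called (log2 fold change -0.71 ± 0.21, adjusted p = 0.0448). Ifih1, which encodes the RNA sensor MDA5, did not overlap between the groups but did not pass (adjusted p = 0.0872), and Trim25, a ubiquitin ligase that acts on RIG-I, had -0.45 ± 0.24 on the log2 scale.

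None of the 3 genes of ADP-ribosylation passed on HFD, at log2 fold changes of -0.60 for Parp9, -0.46 for Dtx3l and -0.35 for Parp14. Parp14, an ADP-ribosyltransferase, read 67, 81.4, 64.9, 90.1 and 58.9 CPM in VWAT HFD and 90.9, 55.3, 73.3, 95.8 and 145 CPM in SWAT HFD, and the groups overlapped. Of the 8 other members, 6 were lower. Rsad2, whose product viperin makes a chain-terminating nucleotide, was at 17.3, 12.6, 8.78, 9.51 and 8.38 CPM in VWAT HFD and at 68.7, 32.6, 34.4, 47 and 98.3 CPM in SWAT HFD (log2 fold change -2.31 ± 0.47, adjusted p = 0.00798). Its neighbour Cmpk2, a mitochondrial nucleotide kinase, had a log2 fold change of -1.82 ± 0.33. Bst2 was at 67.1, 68.8, 60.6, 51.2 and 56.9 CPM in VWAT HFD and 191, 189.7, 113, 121 and 217 CPM in SWAT HFD, without overlap (log2 fold change -1.45 ± 0.28, adjusted p = 0.0062). Ifi44, Rtp4 and Ifi35 completed the 6, at -2.43, -1.06 and -1.25. Xaf1 missed the threshold with 20 libraries (adjusted p = 0.0659), and Samd9l had an adjusted p of 0.663.

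Leaving out any 1 library kept between 14 and 24 members lower in VWAT HFD and 0 higher. In these fits 3.19 to 9.83% of all genes were called in either direction. Of the 23 members, 13 were called in each of these 20 fits. The lowest count, 14, came without SWAT HFD 5, where the members' median was -1.30. With 18 libraries 24 members were lower, beside 6.23% of all genes that were lower and 4.52% higher. Summed CPM of 4 mesothelial markers was 67.3 to 142 in SWAT HFD and 9.21 to 18.2 in VWAT HFD. Krt19 made up nearly all of the SWAT sum, whereas Msln, Upk3b and Lrrn4 were lower in SWAT HFD than in VWAT HFD. The sum of 6 endothelial markers was 234 to 314 in SWAT HFD and 157 to 238 in VWAT HFD. Tek made up most of it, at 142 to 225 and 106 to 146 CPM, and Kdr leaned the same way. Pecam1, Cdh5, Cldn5 and Emcn did not, with Cldn5 at 4.74 to 9.36 CPM in SWAT HFD and 5.99 to 13.4 in VWAT HFD. Summed CPM of 14 leukocyte markers was 10.8 to 26.0 in SWAT HFD and 10.5 to 34.0 in VWAT HFD, with Siglech, a plasmacytoid dendritic cell marker, at 0.111 CPM or less in every library. The part of these cell types in the members' difference was not tested.

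**Figure D3:**
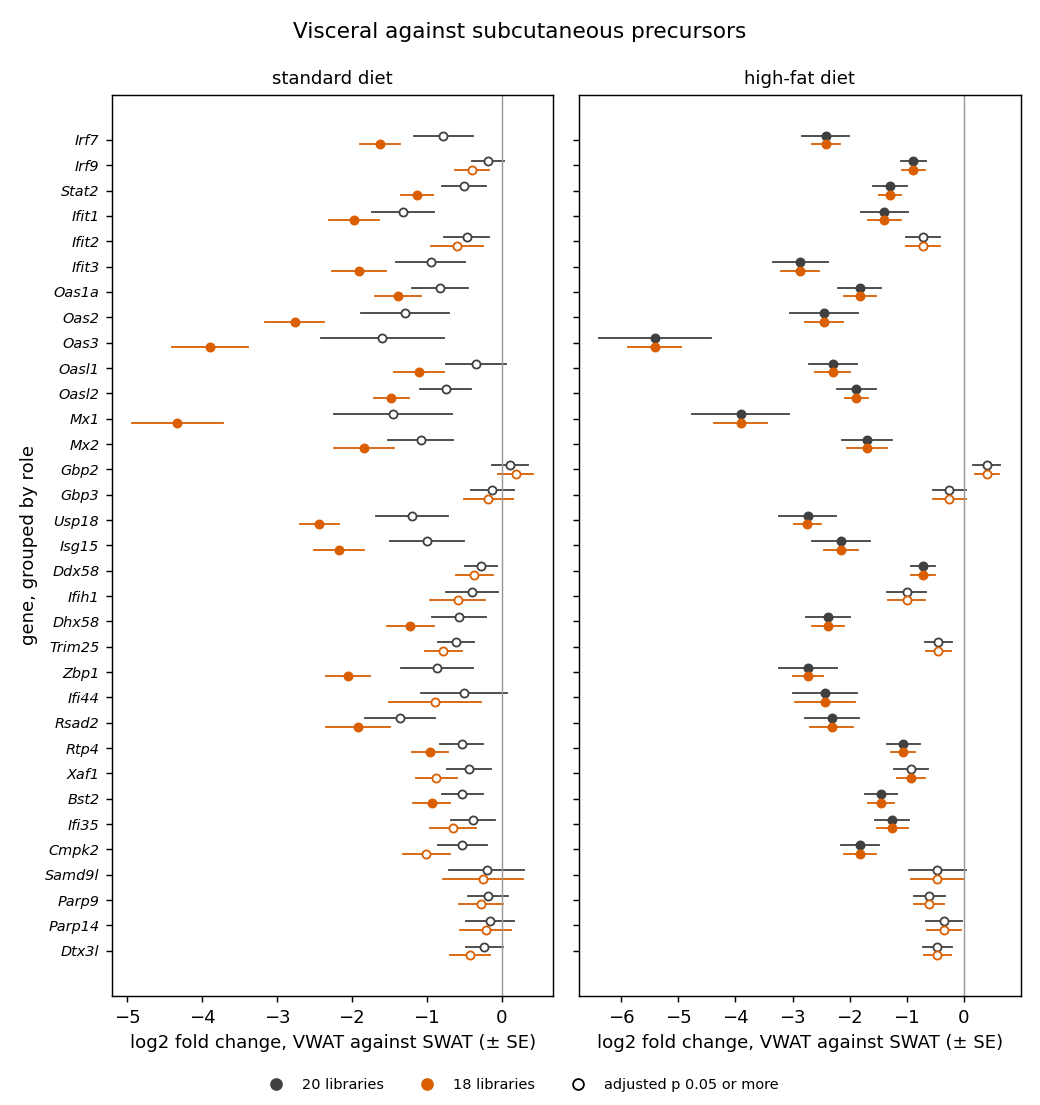
Log2 fold change of each member, VWAT against SWAT (± SE), on standard diet (left) and high-fat diet (right), from the fit of 20 libraries (grey) and of 18 libraries (orange). Filled points passed an adjusted p of 0.05, and on SD none of the grey points is filled whereas 18 of the orange ones are.

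On SD, the depot difference depended on the number 5 libraries. With all 20 libraries, 0 members were called between VWAT SD and SWAT SD by edgeR, as was 0% of all genes, and 8 members had an unadjusted p under 0.05, as did 7.08% of all genes. DESeq2 also called 0 members, beside 0.0632% of all genes, and limma-voom called 0. Without VWAT SD 5 and SWAT SD 5, 18 members were lower in VWAT and 0 were higher. In that fit 4.99% of all genes were lower and 3.46% higher. The members' median log2 fold change was -0.52 with 20 libraries and -1.01 with 18. Leaving out VWAT SD 5 alone gave 12 members called, beside 4.08% of all genes, and leaving out SWAT SD 5 alone gave 1, beside 1.55%. Leaving out any other library gave 0, beside 0% of all genes.

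In 19 members, every library of SWAT SD 1 to 4 lay above every library of VWAT SD 1 to 4, which held for 5.43% of all genes. With the number 5 libraries included, 0 members were separated in that way, beside 0.0772% of all genes. Usp18 read 7.97, 15.3, 10.3 and 13.1 CPM in VWAT SD 1 to 4 and 68.2 CPM in VWAT SD 5. The same gene read 61, 53.2, 66.7 and 70.0 CPM in SWAT SD 1 to 4 and 13.4 CPM in SWAT SD 5. Both number 5 libraries thus fell in the other depot's range, and Usp18 had a log2 fold change of -1.19 ± 0.48 with 20 libraries (adjusted p = 0.646) and -2.43 ± 0.26 with 18 (adjusted p = 1.91e-06, edgeR).

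Irf7 was at 55.2, 84.5, 77, 74.9 and 268 CPM in VWAT SD 1 to 5 and at 270.4, 141, 252, 234 and 64.9 CPM in SWAT SD 1 to 5. Its log2 fold change moved from -0.78 ± 0.39 with 20 libraries to -1.63 ± 0.27 with 18 (adjusted p = 0.000304, edgeR). Oas3 was at 0.483, 0.163, 0.616, 1.30 and 9.56 CPM in VWAT SD and at 12.7, 4.86, 7.06, 13.1 and 0.246 CPM in SWAT SD. Here too the fifth library of each group carried a level of the other depot, and the log2 fold change went from -1.59 ± 0.82 to -3.89 ± 0.51 (adjusted p = 1.97e-05 with 18 libraries).

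Ifit1 and Ifit3 followed. Ifit1 read 11.9, 16.7, 10.6, 11.3 and 32.5 CPM in VWAT SD and 83.2, 52.4, 27.1, 34.3 and 9.69 CPM in SWAT SD, with -1.97 ± 0.33 on the log2 scale over 18 libraries (adjusted p = 0.000333). Ifit3 read 10.1, 7.17, 8.62, 8.90 and 37 CPM and 42.8, 26.1, 20.3, 41.3 and 9.22 CPM, with -1.90 ± 0.36 (adjusted p = 0.00111, edgeR). In both genes the last visceral library was the highest of its group and the last subcutaneous library the lowest. Oasl2 read 37.9, 46.5, 36.8, 46.1 and 132 CPM in VWAT SD and 137, 108, 104, 114 and 40.8 CPM in SWAT SD, and Bst2 showed 45.2, 92.5, 75.2, 93.7 and 140.5 CPM and 166, 108, 144, 165 and 59.3 CPM. Over 18 libraries their log2 fold changes were -1.47 ± 0.23 and -0.93 ± 0.25 (adjusted p = 0.000147 and 0.0175, edgeR).

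The other members called with 18 libraries were Stat2, Oas1a, Oas2, Oasl1, Mx1, Mx2, Isg15, Dhx58, Rsad2, Rtp4 and Zbp1, between -0.96 for Rtp4 and -4.33 for Mx1. Mx1 was low in VWAT SD, at 0.242 ± 0.192 CPM over VWAT SD 1 to 4 (± standard deviation, n = 4), with 0 reads in 1 library. Irf9 did not overlap between SD 1 to 4 of the depots but did not pass (adjusted p = 0.383). Gbp2, Gbp3, Parp9, Parp14, Dtx3l, Ddx58, Ifih1 and Samd9l had log2 fold changes between -0.59 and 0.19 on SD and did not pass either, nor did Ifit2, Ifi44, Xaf1, Trim25, Ifi35 and Cmpk2, which lay between -1.01 and -0.60. Mesothelial marker sums were 107 to 536 CPM in SWAT SD 1 to 4 and 8.67 to 48.0 in VWAT SD 1 to 4, and 331 in VWAT SD 5 and 11.9 in SWAT SD 5. Krt19 made up nearly all of the sum in SWAT SD 1 to 4 and VWAT SD 5. Msln, Upk3b and Lrrn4 went the other way, with Upk3b at 0 to 0.316 CPM in SWAT SD 1 to 4 and 2.94 to 23.1 in VWAT SD 1 to 4. Leukocyte sums were 12.8 to 81.7 in SWAT SD 1 to 4 and 8.45 to 57.1 in VWAT SD 1 to 4. Their part in the result was not tested.

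**Figure D4:**
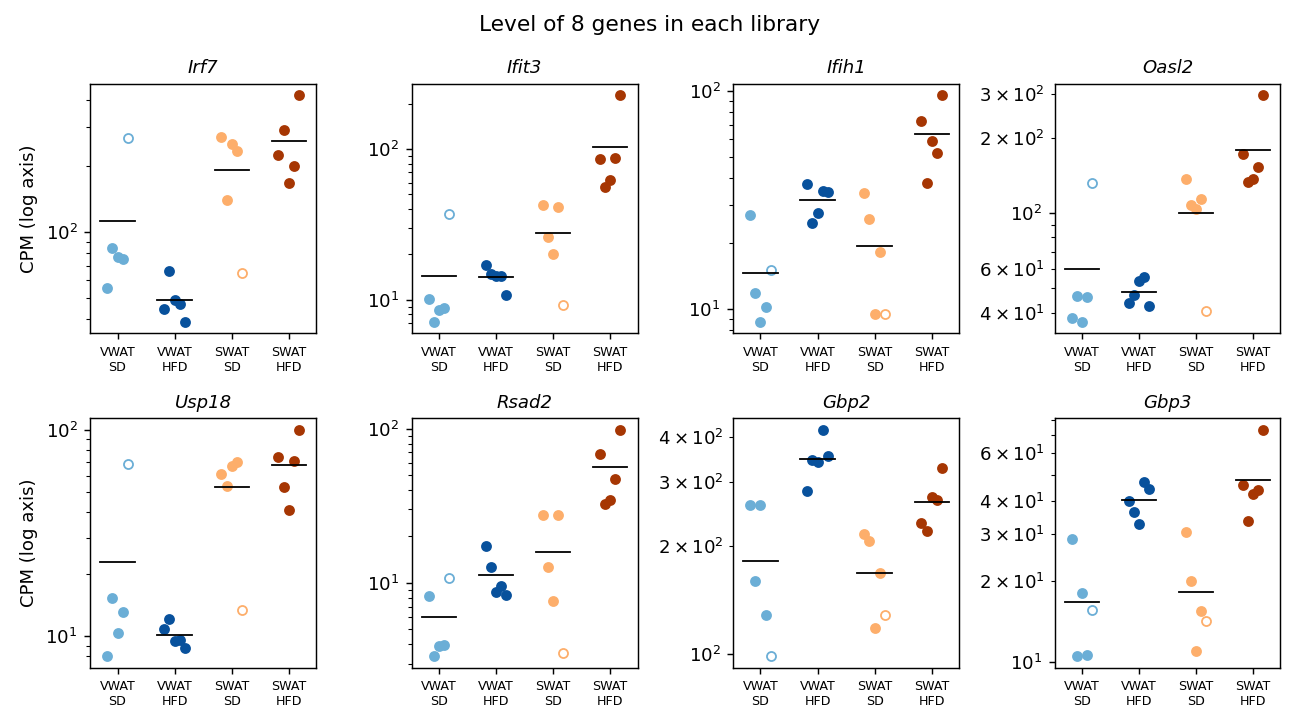
CPM (log axis) of 8 members in every library of the 4 groups, with the mean of each group as a line. Open points are VWAT SD 5 and SWAT SD 5, which for Irf7, Ifit3, Oasl2 and Usp18 lie in the range of the other depot's SD libraries 1 to 4, whereas for Gbp2 and Gbp3 the depots lie at similar levels and the HFD libraries are higher.

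In subcutaneous precursors, few interferon-stimulated genes passed the test after 3 days of HFD, and their number depended on the fit. With 20 libraries, 7 members rose and 0 fell (edgeR, adjusted p between 0.0442 and 0.0488), while 0.857% of all genes rose and 0.702% fell. The log2 fold change, SWAT HFD against SWAT SD, was positive in 32 of 33 members, with a median of 0.95 beside -0.04 over all genes. With 18 libraries, 2 members rose, Ifit3 and Ddx58, and the median was 0.79. In that fit 0.355% of all genes rose and 0.286% fell.

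Of the RNA sensors, Ddx58 read 48.1, 44.4, 24.2, 39.9 and 32.5 CPM in SWAT SD and 85.1, 59.2, 63.5, 77.7 and 108 CPM in SWAT HFD. All HFD libraries lay above all SD libraries, and Ddx58 rose (log2 fold change 1.06 ± 0.21, adjusted p = 0.0442; with 18 libraries log2 fold change 1.01 ± 0.23, adjusted p = 0.0498; edgeR). Ifih1 read 34, 25.8, 9.45, 18.1 and 9.44 CPM in SWAT SD and 72.8, 37.9, 59.2, 51.8 and 96 CPM in SWAT HFD, again without overlap (log2 fold change 1.71 ± 0.35, adjusted p = 0.0472). With 18 libraries its adjusted p was 0.0509.

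Ifit3 rose from 42.8, 26.1, 20.3, 41.3 and 9.22 CPM to the SWAT HFD levels given above, 3.73-fold (log2 fold change 1.90 ± 0.47, adjusted p = 0.0477; with 18 libraries log2 fold change 1.67 ± 0.34, adjusted p = 0.0383; edgeR). Reads that align to more than 1 place are held in a row of their own, and how reads shared with its close copy Ifit3b were split is uncertain. Ifi44 read 2.99, 1.23, 0.0702, 1.84 and 0.403 CPM in SWAT SD and 7.70, 4.80, 5.62, 3.88 and 14.4 CPM in SWAT HFD, the largest rise of the 7 (log2 fold change 2.49 ± 0.57, adjusted p = 0.0474). Its lowest library, SWAT SD 3, held 0.0702 CPM, so that its SD mean rests on few reads. Rsad2 read 27.6, 12.8, 7.62, 27.3 and 3.51 CPM in SWAT SD, all below SWAT HFD (log2 fold change 1.84 ± 0.47, adjusted p = 0.0488). The adjusted p of Ifi44 and Rsad2 was 0.0575 in the fit of 18 libraries.

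Parp9, which works in a complex with the ubiquitin ligase Dtx3l, read 29, 29.3, 16, 25.8 and 15.3 CPM in SWAT SD and 49.7, 33, 42.8, 43.2 and 71 CPM in SWAT HFD (log2 fold change 1.06 ± 0.27, adjusted p = 0.0488). Gbp3 read 30.6, 20.1, 11, 15.5 and 14.3 CPM in SWAT SD and 45.6, 33.6, 42.3, 43.8 and 73.5 CPM in SWAT HFD (log2 fold change 1.38 ± 0.29, adjusted p = 0.0472). In both, every HFD library was above every SD library. Dtx3l read 28, 27.6, 11.7, 19.7 and 11.1 CPM and 35.6, 26.3, 38.3, 38.2 and 51.6 CPM and just missed the threshold (adjusted p = 0.0557), with 1 HFD library below 2 of the SD libraries. In all, 10 members did not overlap between SWAT HFD and SWAT SD, with all libraries or without SWAT SD 5, beside 5.62% and 6.69% of all genes.

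The remaining members did not pass for diet in SWAT. Irf7 and Usp18 in SWAT had log2 fold changes of 0.44 ± 0.39 and 0.36 ± 0.47 (adjusted p = 0.413 and 0.587). Irf9 in SWAT read 93.6, 92.6, 110.3, 91.1 and 61.3 CPM on SD and had 0.04 ± 0.21. Ifi35 read 44.7, 52.6, 79.6, 102 and 32.8 CPM on SD and 51.7, 52.8, 30.0, 49.4 and 68 CPM on HFD and was the 1 member with a negative value, -0.30 ± 0.29. Parp14 in SWAT read 69.3, 54.5, 22.7, 62.1 and 27.6 CPM on SD (log2 fold change 0.97 ± 0.32, adjusted p = 0.0764), and Trim25 read 89.5, 69.2, 40.2, 71 and 35.2 CPM on SD and 115, 88.9, 93.8, 90.1 and 135 CPM on HFD (log2 fold change 0.78 ± 0.24, adjusted p = 0.0673). Oasl1 read 7.02, 8.02, 8.67, 10.4 and 2.75 CPM on SD (log2 fold change 0.80 ± 0.40, adjusted p = 0.157), and Gbp2 read 216, 206, 118, 167 and 129 CPM (log2 fold change 0.66 ± 0.24, adjusted p = 0.0868). Of these genes, only Gbp2 had all HFD libraries above all SD libraries.

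The count of 7 in SWAT was not stable. When 1 library was left out, 17 members rose if this was SWAT SD 1, 16 if VWAT SD 1, 10 if VWAT SD 5, 8 if VWAT SD 2 and 4 if VWAT SD 4. The share of all genes that rose in these fits was 6.8%, 11.9%, 1.68%, 1.16% and 0.525%, in the same order. The count was 0 if it was VWAT SD 3, one of SWAT SD 2 to 5, or an HFD library of either depot, beside 0 to 0.173% of all genes. In those 15 fits 16 to 22 members had an unadjusted p under 0.05, as did 20.8 to 37% of all genes. When each library's percentage of reads on no annotated gene entered the edgeR fit, 0 members and 0% of all genes were called higher. The lowest adjusted p in it was 0.129 and the member median 0.86. That percentage was 3.53 to 9.80 in SWAT SD and 3.18 to 4.54 in SWAT HFD. DESeq2 called 17 members higher, beside 6.93% of all genes, and limma-voom 11, beside 2.13%. Without both number 5 SD libraries and SWAT HFD 5, a setting chosen after the data were seen, 0 members passed, beside 0.00698% of all genes that rose, 29 of 33 were positive and the median was 0.52. Leukocyte marker sums were 12.6 to 81.7 CPM in SWAT SD and 10.8 to 26.0 in SWAT HFD. Across genes, the Spearman correlation of GC content with a gene's deviation from its mean ranged from -0.16 to 0.62 in SWAT SD and from -0.56 to 0.05 in SWAT HFD. With a GC correction of each library, 3 members were called higher with 20 libraries and 8 with 18, beside 0.555% and 1.19% of all genes. Beyond these fits, the part of either in the members' rise was not tested.

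In visceral precursors the members went both ways after HFD. With 20 libraries 6 rose and 6 fell (edgeR), beside 19.7% of all genes that rose and 26% that fell, so that 12 of 33 members were called beside 45.7% of all genes. The median log2 fold change, VWAT HFD against VWAT SD, was -0.02, beside -0.03 over all genes. Without the number 5 libraries 11 rose and 2 fell, beside 13.8% and 22.7% of all genes, and the median was 0.68. All VWAT HFD libraries lay above VWAT SD 1 to 4 in 11 members, beside 6.13% of all genes, and above all 5 VWAT SD libraries in 5, beside 5.17%.

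**Figure D5:**
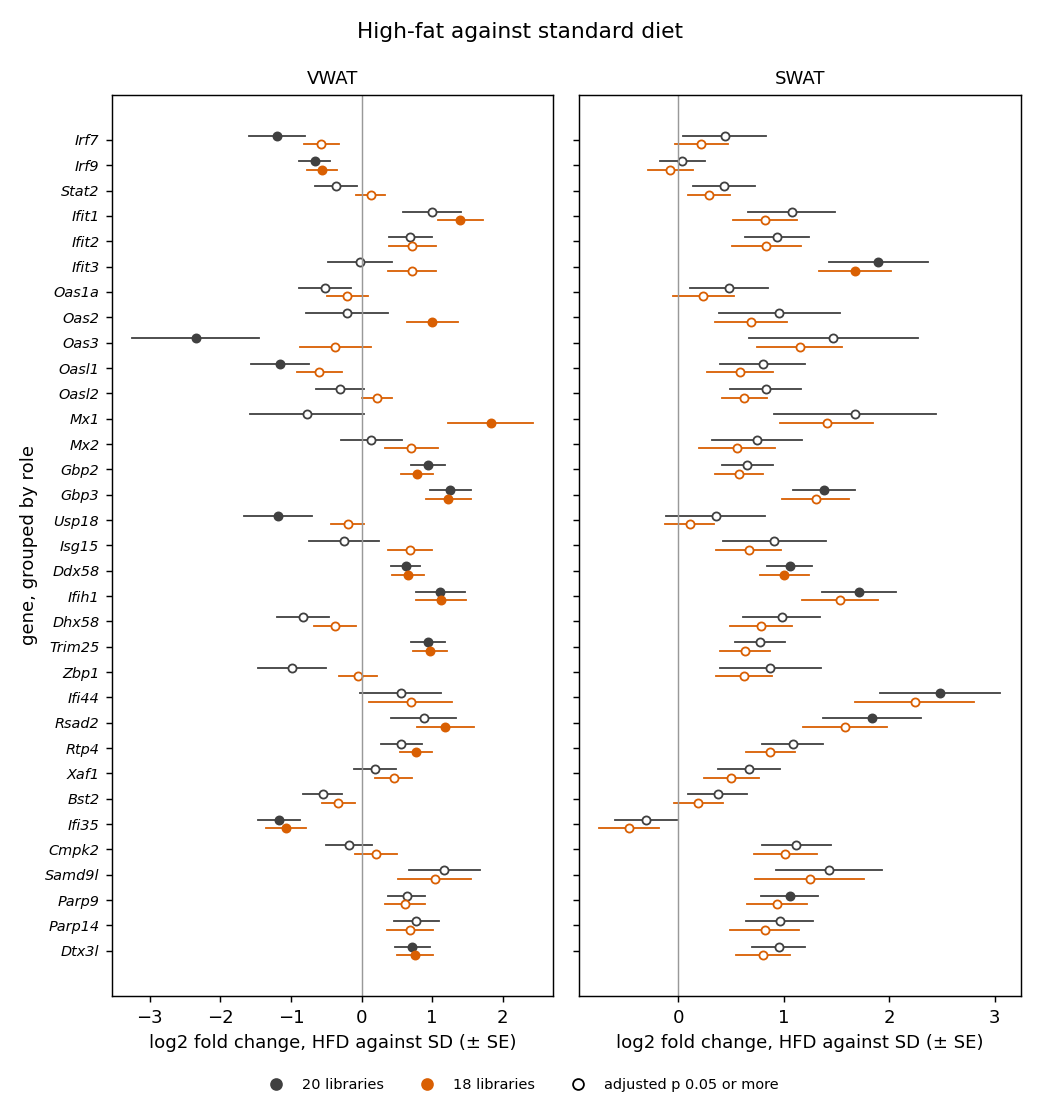
Log2 fold change of each member on HFD against SD (± SE) in VWAT (left) and SWAT (right), from the fit of 20 libraries (grey) and of 18 libraries (orange). Filled points passed an adjusted p of 0.05: 6 members higher and 6 lower in VWAT and 7 higher in SWAT with 20 libraries, 11 higher and 2 lower in VWAT and 2 higher in SWAT with 18.

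The members that rose in VWAT were 3 sensors or regulators, both guanylate-binding proteins and Dtx3l, and each also rose with 18 libraries. Gbp2 read 259.7, 159.5, 259.7, 128 and 98.4 CPM in VWAT SD, all below VWAT HFD (log2 fold change 0.94 ± 0.24, adjusted p = 0.00638; with 18 libraries 0.79). Gbp3 read 28.7, 10.5, 18.2, 10.7 and 15.6 CPM in VWAT SD and 40.0, 36.4, 32.8, 47.1 and 44.2 CPM in VWAT HFD, without overlap (log2 fold change 1.25 ± 0.29, adjusted p = 0.00436; with 18 libraries 1.23). Trim25 read 45, 46.2, 43.4, 22.9 and 42.6 CPM and 69.7, 85.6, 70.3, 92.5 and 65.8 CPM, also without overlap (log2 fold change 0.94 ± 0.24, adjusted p = 0.00621; with 18 libraries 0.96).

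Ifih1 read 27.1, 11.8, 8.70, 10.2 and 15 CPM in VWAT SD and 37.3, 24.7, 27.5, 34.8 and 34.3 CPM in VWAT HFD (log2 fold change 1.11 ± 0.35, adjusted p = 0.0157). Its first SD library lay among the HFD libraries. Ddx58 read 39.3, 20.4, 28.9, 33.2 and 33.9 CPM and 45, 58.2, 48.4, 47.4 and 41.3 CPM (log2 fold change 0.62 ± 0.21, adjusted p = 0.0219), and Dtx3l read 23.5, 12.2, 15.5, 13.8 and 18.4 CPM and 26.2, 29.5, 28, 30.3 and 23.9 CPM (log2 fold change 0.72 ± 0.25, adjusted p = 0.0265), both without overlap. Parp9 at 36.9, 14.3, 17.5, 13.4 and 19 CPM on SD and 34.2, 29.9, 27.8, 36.2 and 29.9 CPM on HFD missed the threshold (adjusted p = 0.0545), with its first SD library the highest of all 10. Parp14 read 63.5, 24.8, 59.4, 32 and 31.8 CPM on SD (adjusted p = 0.0509).

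With 18 libraries, Ifit1 (1.40 ± 0.31), Oas2 (1.00 ± 0.36), Mx1 (1.83 ± 0.60), Rsad2 (1.19 ± 0.41) and Rtp4 (0.77 ± 0.23) also rose on the log2 scale in VWAT. Rsad2 read 8.27, 3.34, 3.93, 3.97 and 10.8 CPM in VWAT SD, and Ifi44 read 0.856, 0.896, 0.539, 1.03 and 1.23 CPM in VWAT SD and 1.46, 1.53, 0.634, 1.51 and 1.58 CPM in VWAT HFD. VWAT SD 5 was the highest SD library for both, and Ifi44 passed in neither fit (adjusted p = 0.434 and 0.345).

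Of the 6 members that fell with 20 libraries, 2 also fell with 18. Ifi35, an interferon-induced leucine zipper protein, read 22.3, 47.2, 42.2, 66.4 and 60.2 CPM in VWAT SD and 22, 23.7, 24.9, 18.1 and 17.2 CPM in VWAT HFD, with the first SD library in the HFD range (log2 fold change -1.17 ± 0.30, adjusted p = 0.00614; with 18 libraries -1.07). Irf9 read 43.8, 88.1, 76.1, 86.7 and 102 CPM in VWAT SD (log2 fold change -0.67 ± 0.22, adjusted p = 0.0181; with 18 libraries -0.56), and its first SD library also lay in the HFD range.

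The other 4 were among the members for which VWAT SD 5 was the highest SD library. Irf7 fell by 1.19 on the log2 scale with 20 libraries (adjusted p = 0.0205) and had -0.57 ± 0.25 with 18 (adjusted p = 0.076). Usp18 went from -1.19 ± 0.48 to -0.20 ± 0.24, Oas3 from -2.35 ± 0.90 to -0.37 ± 0.51 and Oasl1 from -1.15 ± 0.41 to -0.60 ± 0.32, with adjusted p of 0.517, 0.571 and 0.138 in the fit of 18 libraries (edgeR). Oasl1 read 2.24, 5.86, 3.77, 4.18 and 12.8 CPM in VWAT SD. None of the 4 was separated between VWAT HFD and VWAT SD.

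Base composition moved with these calls. Transcripts of the 6 members that rose in VWAT had a GC content of 42.8 to 49.9% and those of the 6 that fell 50.4 to 56.3%, and over all genes the medians were 43.9% for those that rose and 55.4% for those that fell. Across genes, the Spearman correlation of GC content with a gene's deviation ranged from -0.63 to -0.22 in the VWAT HFD libraries. It was -0.54 in VWAT SD 1, within the HFD range, and 0.50 to 0.61 in VWAT SD 2 to 5. With 18 libraries and a GC correction of each library, 5 members rose and 0 fell, beside 6.55% and 9.14% of all genes. Of the 12 members called with 20 libraries, Gbp3 and Trim25 were called in this fit too, and the other 3 that rose were Oas2, Isg15 and Rtp4. Gbp2 (log2 fold change 0.43 ± 0.17, adjusted p = 0.0796), Ifih1 (log2 fold change 0.45 ± 0.20, adjusted p = 0.124) and Ifi35 (log2 fold change -0.50 ± 0.21, adjusted p = 0.104) did not pass in it. The median was 0.30, and Irf7, Oas3 and Oasl1 had values of 0.05, 0.12 and 0.13. In SWAT the same fit called 8 members higher, beside 1.19% of all genes. Between the depots it called 28 lower on HFD and 23 lower on SD, beside 8.85% and 7% of all genes.

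Leaving out 1 library gave 7 to 18 members called in VWAT, beside 30.7 to 59% of all genes. Without VWAT SD 2 the total was 7, in the fit with 30.7% of all genes, and without VWAT SD 1 it was 18, with 10 higher, in the fit with 59%. Members that fell numbered 1 without VWAT SD 5 or VWAT HFD 5, 2 without VWAT HFD 1, and 3 without VWAT HFD 4 or VWAT SD 2. In these fits 22.3%, 18.9%, 20.4%, 19.7% and 19.1% of all genes fell, in the same order. Without VWAT SD 1 the count was 8, beside 29.3%. In the remaining fits it was 4 to 6, beside 20.9 to 26.1%. Gbp2, Gbp3, Trim25, Ifih1 and Ifi35 passed in each of the 20 fits that left out 1 library. When each library's percentage of reads on no annotated gene entered the fit, 3 members rose and 0 fell, beside 4.65% and 8.55% of all genes. That percentage was 3.36 to 9.80 in VWAT SD and 3.61 to 4.60 in VWAT HFD. Leukocyte marker sums were 8.45 to 57.1 CPM in VWAT SD and 10.5 to 34.0 in VWAT HFD, and their part was not tested.

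The difference between the depots' diet effects was tested as an interaction, and 0 of the 33 members passed with 20 or with 18 libraries, as was 0% and 0.00696% of all genes. DESeq2 and limma-voom called 0 with 20 libraries. At an unadjusted p under 0.05, 14 members were found with 20 libraries, all with a negative interaction, beside 4.25% of all genes. With 18 libraries there were 4, beside 3.05%. The members' median interaction was -0.87 with 20 libraries and -0.32 with 18, and -0.12 when SWAT HFD 5 was left out as well. A larger rise in SWAT than in VWAT was therefore not shown for any member. The 4 comparisons of groups share libraries, so their values are set side by side only.

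The rest of the pathway was read from lists of genes that are not members. None of 21 interferon ligands passed the filter on low counts. Ifnb1, the type I interferon of stromal cells, reached at most 23 reads in a library and 96 in all 20, and Ifng at most 3 reads in a library.

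Among 16 receptors and signalling genes, 0 were lower and 1 was higher in VWAT than in SWAT on HFD, beside 3.63% and 2.82% of all genes. The 1 was Irf8 (log2 fold change 1.30 ± 0.38, adjusted p = 0.0428, edgeR), and the list median was 0.0054 on the log2 scale. With 18 libraries the counts were the same, beside 6.23% and 4.52% of all genes. In VWAT after HFD, 3 rose and 4 fell, a share near the 45.7% of all genes called there: the receptor chain Ifnar1 (0.50) and the kinases Jak1 (0.96) and Jak2 (1.81) rose, and Tyk2 (-0.82), Irf1 (-1.10), Irf3 (-1.27) and the inhibitor Socs1 (-0.80) fell. With 18 libraries 4 rose and 5 fell, beside 13.8% and 22.7% of all genes, and the list median turned from -0.02 to 0.14. In SWAT 0 of the 16 passed with edgeR with 20 or 18 libraries, beside 1.56% and 0.641% of all genes. With 20, 7 had an unadjusted p under 0.05, as did 34.2% of all genes. Of 9 tested upstream sensors and adaptors, 0 passed between depots on HFD or with diet in SWAT, and in VWAT 2 rose, Tbk1 and Mb21d1, and 2 fell, Mavs and Ticam1, again near the share of all genes called. In VWAT with 18 libraries 0 rose and Mavs and Ticam1 fell, beside 13.8% and 22.7% of all genes.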

How the data were processed

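RNA-seq libraries of 20 pools of sorted adipocyte precursors were analysed, in 4 groups of 5. The authors deposited 1 table of raw counts per gene and library. Per the submitters' processing notes the tools were TopHat and HTSeq and the build mm9; versions, annotation and strand setting were not given in the sources used here, so reads of overlapping neighbours may not be separated. Of its 33929 rows, 5 hold reads without a gene (21.8 to 37.0% of reads) and 25 hold gene names turned into dates (0.0598 to 0.132% of reads). Both kinds were left out. Reads on genes numbered 14367067 to 47483171 per library.

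CPM values are read counts divided by library size and scaled by edgeR's TMM factors (edgeR 4.0.16, R 4.3.3). Genes passing filterByExpr by group were fitted with glmQLFit (robust) and glmQLFTest, 1 mean per group over all 20 libraries, with Benjamini-Hochberg adjustment over all genes tested at 0.05. Fold changes are given ± standard error. Alternatives were 18 libraries, RLE scaling, DESeq2 1.42.0, limma-voom 3.58.1, no filter, the replicate number as a block, and each library left out. Another took each library's percentage of reads on no annotated gene as a covariate. This is 1 of the 5 rows of reads without a gene and held 3.18 to 9.80% of reads. A further alternative was a GC correction (a lowess line of each library's log2 CPM deviation on GC content, span 0.3, as offset). After the data were seen, 18 libraries with the block and 17 libraries, also without SWAT HFD 5, were added. The code was tested on simulated counts.

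The members and all gene lists were chosen with earlier results of these data known; 1 signalling gene is not reported here. Any member could be named; per-library values are given for 20 members: those called with diet, and the most abundant member of each role. Comparisons of members are given with and without the number 5 SD libraries. Replicates differed by more than counting noise (chi-square per degree of freedom 19.2 to 420 over 40 pairs). Promoters and gene order are from RefSeq, GRCm38.p6, and transcript lengths and GC content from GENCODE M21; no mm9 coordinates were used.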

Additional observations from a re-analysis of the deposited data

Results flagged for a closer look

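In groups of 5 libraries, the highest or lowest library was set against its nearest neighbour relative to the whole range, for the members' median and for the 20 members with values in every library, 84 groups in all. A gap over 0.71 of the range was found in 14 of them. Chance gives such a gap in about 1 in 20 independent groups of normally distributed values. These members vary together in the same libraries, so the count of 14 cannot be read against that rate. VWAT SD 5 stood above VWAT SD 1 to 4 in 7 cases. Its member median was 0.50 on the log2 scale, and it held 268 CPM of Irf7, 32.5 of Ifit1, 37.0 of Ifit3, 9.56 of Oas3, 132 of Oasl2 and 68.2 of Usp18. SWAT HFD 5 stood above the other SWAT HFD libraries in 4 cases, with a member median of 1.79, 228 CPM of Ifit3, 44.0 of Oas3 and 298 of Oasl2. Single genes gave the last 3 cases. VWAT SD 1 was high for Parp9 at 36.9 CPM, VWAT SD 4 low for Trim25 at 22.9 CPM, and VWAT HFD 3 low for Ifi44 at 0.634 CPM.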

How the results depend on the processing

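The count of members lower in VWAT HFD than in SWAT HFD, 23, lay between 14 and 24 over the fits without 1 library. It lay between 20 and 28 over the other alternatives, with 0 higher. Of all genes, 3.19 to 9.83% and 3.28 to 16.2% were called in either direction in these fits. On SD the same count moved from 0 to 18 with 18 libraries, 23 with 18 libraries and GC correction and 20 with 17 libraries. The share of all genes called in either direction moved from 0% to 8.45%, 12.8% and 7.94%. Without 1 library the count lay between 0 and 12, beside 0 to 4.08% of all genes. In SWAT, 7 members were called with diet, beside 1.56% of all genes. The count became 2 with 18 libraries (0.641% of all genes), 3 without the expression filter (0.192%) and 3 with GC correction (0.719%). It was 11 with limma-voom (3%), 17 with DESeq2 (14.7%), 0 with the covariate (0%) and 0 with 17 libraries (0.00698%). Without 1 library it lay between 0 and 17 (0 to 23.3%). In VWAT, 12 were called, beside 45.7% of all genes. The count became 3 with the covariate (13.2% of all genes), 4 with GC correction (19.4%) and 5 with 18 libraries and GC correction (15.7%). Without 1 library it lay between 7 and 18 (30.7 to 59%). The causes were not tested.

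The VWAT diet median of -0.02 turned positive with 18 libraries (0.680) and 17 libraries (0.680), with limma-voom (0.41) and with the replicate block (0.26), and ran from -0.18 to 0.68 without 1 library. Over the same fits the medians ran from 0.74 to 1.18 for diet in SWAT, -0.89 to -0.39 between depots on SD, -1.53 to -1.30 between depots on HFD, and -1.02 to -0.44 for the interaction, with 0 members called for the interaction in each fit. The interaction median was -0.32 with 18 libraries and -0.12 with 17. In VWAT the values of Irf7 (0.048), Oas3 (0.12) and Oasl1 (0.13) turned positive with 18 libraries and GC correction, having been negative with 20.

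The replicate numbers are shared by the groups, and no pair of groups had every same-numbered correlation of deviations over 0.1. Between VWAT and SWAT these ran from -0.57 to 0.72 on SD. The value of -0.57 was that of the number 5 libraries, which went against their depot labels, and the number 2 libraries had -0.48. On HFD all 5 were positive, from 0.06 to 0.70, with 4 over 0.1. The libraries that correlated best with their own number were 1 of 5 in each depot on SD, 2 of 5 in VWAT HFD and 3 of 5 in SWAT HFD. With the replicate number as a block, 14 members were called with diet in SWAT, 11 in VWAT, 20 between depots on HFD and 0 on SD, beside 14.7%, 48.2%, 6.36% and 0% of all genes. With the block and 18 libraries, 19 were called between depots on SD, beside 9.35% of all genes. In that fit the VWAT diet median was 0.625 and the interaction median -0.24.

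Depth limits the lowest members: Ifi44 and Oas3 had as few as 2 reads in a library and Mx1 had 0, where 1 CPM is 14.4 reads in the shallowest library.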

Other observations

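A list of 39 other interferon-induced genes, 37 of them tested, gave these values (edgeR, 20 libraries). On HFD, 17 were lower in VWAT than in SWAT and 0 higher, beside 3.63% and 2.82% of all genes, with a median log2 fold change of -0.85. Apol9b had -3.81 ± 0.66, Oas1g -2.49 ± 0.56, Ifit3b -1.87 ± 0.43 and the GTPase Igtp -1.60 ± 0.30; Parp12, Adar, an RNA editing enzyme, and Pml, the organiser of nuclear bodies, were also lower, at -1.16, -1.32 and -1.24. On SD, 0 of the 37 and 0% of all genes were called with 20 libraries, and 9 were lower in VWAT with 18, beside 4.99% of all genes. With HFD in SWAT, Ifit3b (1.78 ± 0.43) and Sp100 (0.85 ± 0.21) rose and Ifitm1 (-1.47 ± 0.32) fell with 20 libraries, where 0.857% of all genes rose and 0.702% fell, and Ifitm1 alone passed with 18. Oas1g and Ifit3b are close copies of the members Oas1a and Ifit3, and how shared reads were split between copies is uncertain.

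In VWAT after HFD, 7 of the 37 rose and 10 fell, close to the 45.7% of all genes called, with a median of -0.15. Slfn5 (1.03 ± 0.24), Gbp7 (1.39 ± 0.36) and Eif2ak2, the RNA-activated kinase PKR (1.12 ± 0.35), rose. Ube2l6 and Uba7, the conjugating and activating enzymes of ISG15, fell (-0.95 ± 0.23 and -0.83 ± 0.25), as did the membrane proteins Ifitm1, Ifitm2 and Ifitm3 (-1.15, -0.78 and -0.65). With 18 libraries 8 rose and 6 fell, beside 13.8% and 22.7% of all genes, and the median turned to 0.11.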
